A study of Mus musculus with 3 samples.

Results

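The metallothionein genes Mt1 and Mt2, with the zinc exporter Slc30a1, the zinc importer Slc39a14 and the zinc-sensing regulator Mtf1, were followed through the cell classes of mouse liver in 3 single-cell libraries. These 5 genes, found by symbol, are 5 of the 31253 genes in the count matrices, and they were selected on their levels in the irradiated and unirradiated libraries, above all those of Mt1 and Mt2 in endothelial- and monocyte-like cells, so those levels are a description. The library called dHep_IR here is labelled Gsdmd∆Hep with irradiation, by the usual notation a deletion of Gsdmd in hepatocytes, and its genotype tag reads gsdmd-ko. FL_IR is labelled GsdmdFL/FL with irradiation, and FL_control GsdmdFL/FL without it. Both carry the genotype tag WT, although their titles name a floxed allele. The irradiated livers were taken 7 days after 30 Gy. The Cre driver, the part of the body exposed, sex, age and any pooling of animals are not stated in the labels. Each group is 1 library, so no value has a spread between animals, no test between groups was possible, and every interval is a 95% interval that covers counting error only.

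Metallothioneins are small cysteine-rich proteins that bind zinc and copper, buffer free zinc and react with oxidants. Their transcription is driven by MTF-1, the protein of Mtf1, which binds metal response elements when zinc is high. MTF-1 also drives Slc30a1, which encodes ZnT1, the plasma membrane exporter of zinc. Glucocorticoids, interleukin-6 through STAT3 and oxidative stress are further known inducers of Mt1 and Mt2. Slc39a14 encodes ZIP14, an importer of zinc, manganese and iron that is known as an acute-phase gene of hepatocytes. In liver, metallothioneins are best known from hepatocytes, and their transcripts could therefore also reach other droplets as free RNA.

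On GRCm38, Mt2 lies on the + strand at chr8:94172664-94173568 and Mt1 on the same strand at chr8:94179082-94180327, with 5513 bases between them. Slc30a1 lies at chr1:191906767-191913247 (+), Slc39a14 at chr14:70303469-70351425 (-) and Mtf1 at chr4:124802104-124849800 (+). The promoter windows below are shown because Mt1, Mt2 and Slc30a1 are the members with the strongest known response to metals. They run from 250 bases before to 50 bases after the RefSeq transcript start on GRCm38.p6, at chr8:94178839-94179138 for Mt1, chr8:94172368-94172667 for Mt2, chr1:191906531-191906830 for Slc30a1 and chr4:124802299-124802598 for Mtf1, all on the + strand. Capitals mark each match to the core of the metal response element, TGCACNC or TGCGCNC, on either strand, and no 2 matches overlap.
Mt1: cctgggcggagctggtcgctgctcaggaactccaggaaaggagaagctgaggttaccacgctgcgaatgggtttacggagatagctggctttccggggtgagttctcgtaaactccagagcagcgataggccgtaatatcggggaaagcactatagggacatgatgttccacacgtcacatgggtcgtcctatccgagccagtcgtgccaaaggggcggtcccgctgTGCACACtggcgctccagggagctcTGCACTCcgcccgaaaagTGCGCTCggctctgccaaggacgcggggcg
Mt2: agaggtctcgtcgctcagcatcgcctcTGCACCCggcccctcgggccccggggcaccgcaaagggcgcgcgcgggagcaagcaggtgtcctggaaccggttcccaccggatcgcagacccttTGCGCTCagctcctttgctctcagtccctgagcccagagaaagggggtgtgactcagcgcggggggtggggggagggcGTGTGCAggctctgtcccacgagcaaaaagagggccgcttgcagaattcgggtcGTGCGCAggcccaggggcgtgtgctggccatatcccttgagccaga
Slc30a1: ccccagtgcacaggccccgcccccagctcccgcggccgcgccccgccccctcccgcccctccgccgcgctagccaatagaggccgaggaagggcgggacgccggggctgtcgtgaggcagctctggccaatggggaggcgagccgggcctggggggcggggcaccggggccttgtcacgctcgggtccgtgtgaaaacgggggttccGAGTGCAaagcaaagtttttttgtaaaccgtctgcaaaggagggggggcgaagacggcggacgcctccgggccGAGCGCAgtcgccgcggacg
Mtf1: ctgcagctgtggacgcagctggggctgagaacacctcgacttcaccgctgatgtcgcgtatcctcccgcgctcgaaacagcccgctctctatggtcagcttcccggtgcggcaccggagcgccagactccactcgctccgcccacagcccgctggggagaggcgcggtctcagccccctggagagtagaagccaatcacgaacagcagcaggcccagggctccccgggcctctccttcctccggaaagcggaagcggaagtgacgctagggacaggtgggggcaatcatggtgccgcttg
The Mt1 window held 3 cores, starting 23 bases before the start and at bases 3 and 21 after it. The Mt2 window held 4, starting 223, 128 and 50 bases before the start and at base 5 after it, the last 2 on the minus strand. The Slc30a1 window held 2, at 43 bases before and at base 31 after the start, both on the minus strand, and the Mtf1 window held 0. Of 32851 windows of the same length, 25.7% held at least 1 core, 7.11% at least 2, 1.97% at least 3 and 0.517% at least 4. A match describes the letters of the window and is not shown here to be a bound site. The RefSeq starts behind these windows differ from the gene starts given above. For these genes no window at another start was searched.

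The libraries held 78694038 UMIs over 8214 barcodes for dHep_IR, 59228905 over 7265 for FL_IR and 52858425 over 7393 for FL_control, and 7261, 6545 and 6458 cells were kept in that order. Between dHep_IR and FL_control 42 kept barcodes were shared, 34 of them in the same class, against 24 between dHep_IR and FL_IR and 7 between FL_IR and FL_control. Leaving the shared barcodes out moved none of the 75 ratios below beyond its counting error. The library labelled FL_IR stood apart in Gsdmd itself, with 7.21 CPM over all kept cells, against 36.9 CPM in dHep_IR and 36.4 CPM in FL_control. CPM here means UMIs per 1000000 UMIs of the cells summed. In hepatocyte-like cells Gsdmd stood at 4.45 CPM in FL_IR (0.539 to 16.1, 2 UMIs), against 28.5 CPM in FL_control (17.8 to 43.1, 22 UMIs). FL_IR was thus the lower of these 2 there too. The 9 hepatocyte-like cells of dHep_IR held 1 Gsdmd UMI (51.0 CPM, 1.29 to 284), so the deletion could not be examined where the label places it. Cells were named X-like from marker genes, and all 15 endothelial markers had UMIs in the endothelial-like cells of each library, 14 of them in at least 20% of those cells. Irradiated and unirradiated cells of a class mostly fell into different clusters, which are named beside the values, and the members were not kept out of the clustering.

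Endothelial-like cells of both irradiated livers carried far more metallothionein transcript than those of the unirradiated liver. Mt1 stood at 15998 CPM in dHep_IR (3456 cells) and 11853 CPM in FL_IR (3005 cells), against 648 CPM in FL_control (2518 cells). Mt2 stood at 6719 CPM in dHep_IR and 4576 CPM in FL_IR, against 156 CPM in FL_control. Both irradiated libraries were thus high and the unirradiated one low for both genes. Against FL_control, Mt1 in FL_IR was 18.3-fold higher (18.0 to 18.6) and Mt2 29.4-fold higher (28.4 to 30.4). Of the 5 genes, 3 were at least 2-fold higher in these cells (Mt1, Mt2 and Slc30a1), where 9.75% of all 12638 genes measured were higher and 16.5% lower by that much. In the order of all measured genes, 104 had a higher ratio than Mt1 and 71 a higher ratio than Mt2. The endothelial-like cells of dHep_IR were 24.7-fold above FL_control for Mt1 (24.3 to 25.1) and 43.2-fold for Mt2 (41.7 to 44.7), and this comparison shares FL_control with the one before it. In it, 2 of the 5 genes were at least 2-fold higher, where 8.58% of genes were higher and 19% lower by that much. These shares stand as background only, since the genes were selected on the same comparisons.

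**Figure D1:**
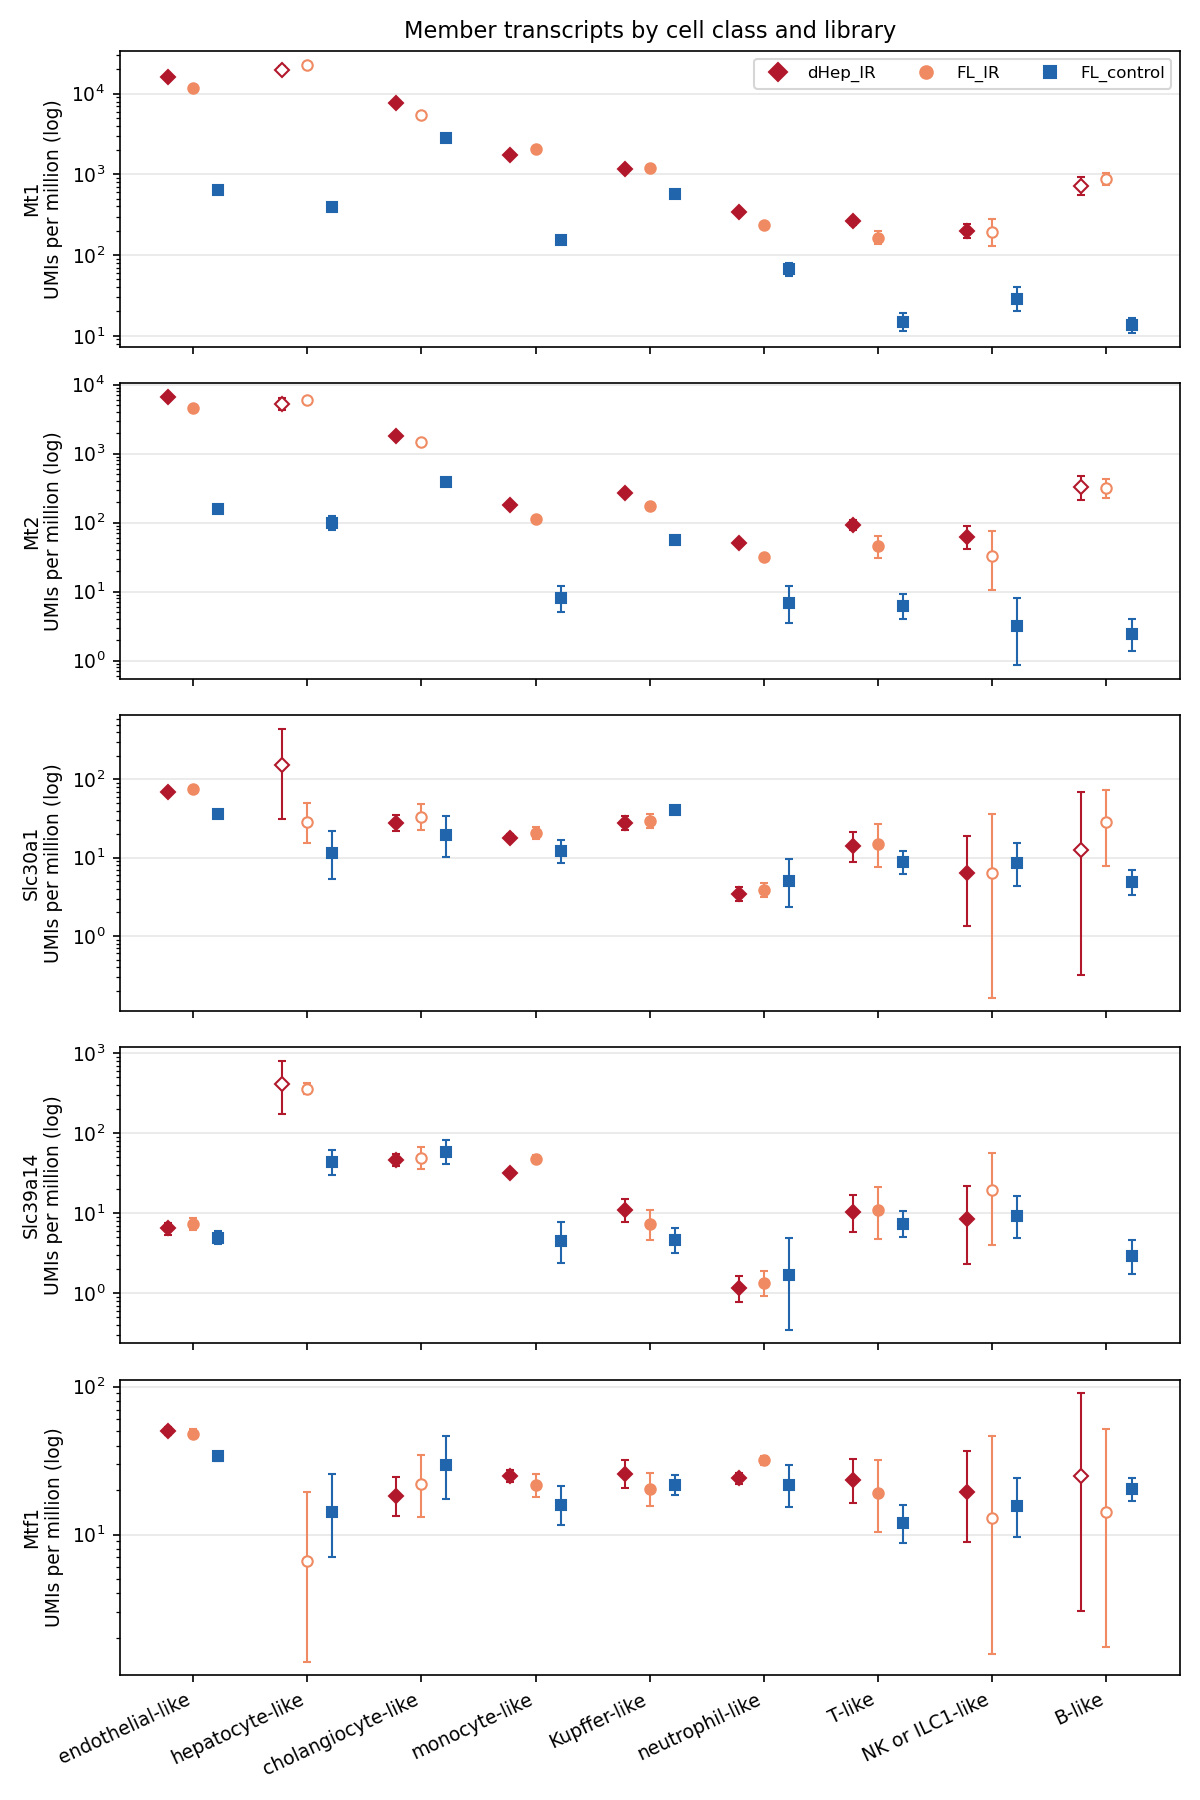
CPM of the class (log axis) for each of the 5 genes in each class, for dHep_IR, FL_IR and FL_control, with 95% Poisson bars; open symbols stand for fewer than 50 cells and values of 0 are not drawn. Mt1 and Mt2 of the irradiated libraries lie above FL_control in every class drawn, while Slc39a14 separates the libraries mainly in monocyte- and hepatocyte-like cells.

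Other measures of these endothelial-like cells moved with the metallothioneins. Their median depth was 5554 UMIs in dHep_IR and 5661 in FL_IR, against 8451 in FL_control. The 15 endothelial markers together stood at 16233 CPM in dHep_IR and 14108 CPM in FL_IR, against 29753 CPM in FL_control. Transcripts of other cells differed too. The neutrophil genes S100a8 and S100a9 together had 930 CPM in dHep_IR and 1055 CPM in FL_IR, against 43.4 CPM in FL_control, and the 4 haemoglobin genes had 11.2 CPM, 7.04 CPM and 843 CPM in the same order, with none of either list at 0. The 8 hepatocyte markers had 106 CPM in dHep_IR and 414 CPM in FL_IR, against 265 CPM in FL_control, again with none at 0. The part of depth, markers and neutrophil transcripts in the metallothionein levels was not tested.

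The high level was shared by nearly all endothelial-like cells of the irradiated libraries. When each cell was thinned to 1000 UMIs, 99.6% of cells in dHep_IR (99.3 to 99.8) and 98.6% in FL_IR (98.1 to 99.01) kept a Mt1 or Mt2 UMI, against 47.1% in FL_control (45.1 to 49.1). The thinning left out 114, 110 and 61 shallower cells. Without thinning the shares were 99.9%, 99.9% and 88.3%. The T-like class had the lowest thinned share in both irradiated libraries, 19.4% in dHep_IR (median depth 6011 UMIs) and 19.6% in FL_IR (5949.5 UMIs), and the B-like class the lowest in FL_control, 1.35% (4010 UMIs). The endothelial-like share was above that background in each library. The median thinned cell held 22 Mt1 and Mt2 UMIs in dHep_IR and 15 in FL_IR, against 0 in FL_control, and the cell at the 90th percentile held 41, 32 and 2. The tenth of cells with the most held 21.2% of the thinned UMIs in dHep_IR and 23.99% in FL_IR, against 40.2% in FL_control. Within cells, thinned Mt1 and Mt2 counts went together with a Spearman correlation of 0.64 over the cells of dHep_IR and 0.67 over those of FL_IR, against 0.13 in FL_control, where most cells held 0 or 1 UMI; these cells share 1 library each and the value is a description.

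**Figure D2:**
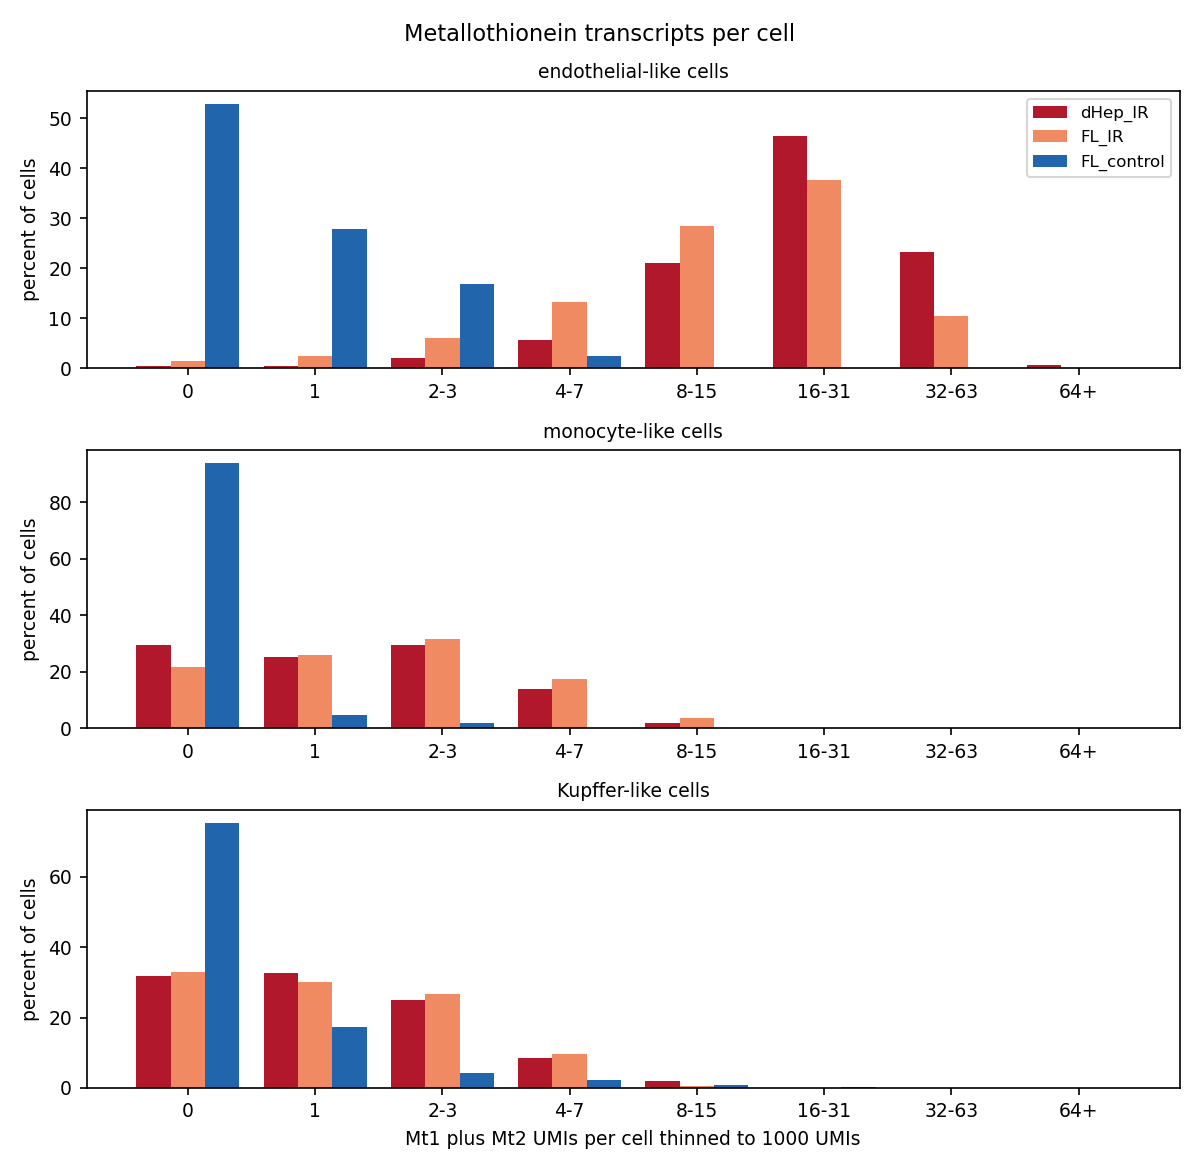
Percent of cells (vertical axis) by the number of Mt1 plus Mt2 UMIs after each cell was thinned to 1000 UMIs, for endothelial-, monocyte- and Kupffer-like cells of dHep_IR, FL_IR and FL_control. Endothelial-like cells of the irradiated libraries peak at 16 to 31 UMIs, with 46.4% of cells in dHep_IR and 37.7% in FL_IR, where FL_control has 0% of cells, and 52.9% of FL_control cells are at 0.

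Every endothelial-like cluster of the irradiated libraries shared the high level, including the one led by Rspo3, a gene known from central vein endothelium. In that cluster, numbered 0, Mt1 stood at 15718 CPM in dHep_IR (215 cells) and 12006 CPM in FL_IR (94 cells). In cluster 3, which held most of dHep_IR, Mt1 stood at 17487 CPM (1901 cells), against 15719 CPM in FL_IR (429 cells). In cluster 1, which held most of FL_IR, it stood at 11448 CPM in dHep_IR (478 cells) and 11117 CPM in FL_IR (1669 cells). Cluster 2 had 14072 CPM in dHep_IR and 11025 CPM in FL_IR. Clusters 21, 24 and 22 held the cells of FL_control, at 716, 569 and 896 CPM. No irradiated cluster came near the unirradiated ones, and dHep_IR was above FL_IR in each of the 5 clusters they shared, by the least in cluster 1. The 2 clusters of shallow cells, 11 in the irradiated libraries and 22 in FL_control, had Mt1 at 24799 CPM in dHep_IR and 14763 CPM in FL_IR, against 896 CPM in FL_control.

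**Figure D3:**
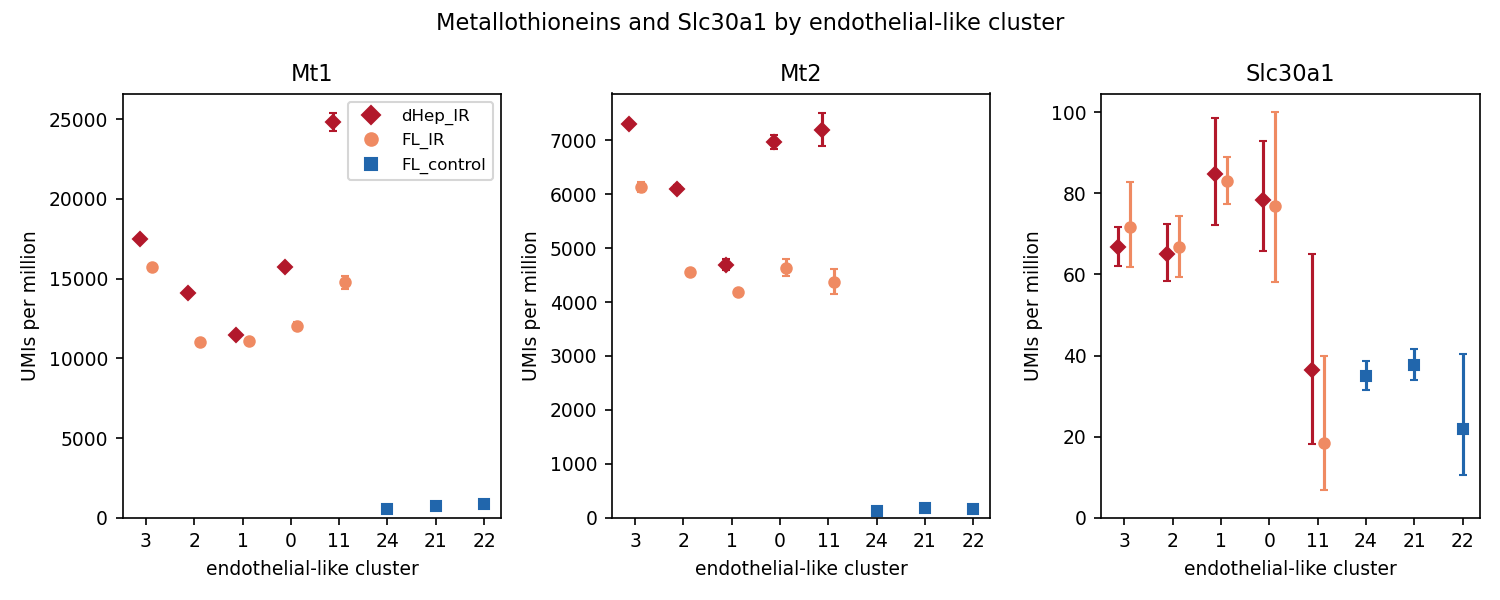
CPM (linear axis) of Mt1, Mt2 and Slc30a1 in each endothelial-like cluster with at least 50 cells of a library, with 95% Poisson bars; clusters 3, 2, 1, 0 and 11 hold the irradiated libraries dHep_IR and FL_IR, and clusters 24, 21 and 22 FL_control. Mt1 lies between 11025 and 24799 CPM in the irradiated clusters and between 569 and 896 CPM in the unirradiated ones, while Slc30a1 of the shallow cluster 11 lies at or below 36.4 CPM, no higher than the 37.7 CPM of cluster 21.

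Monocyte-like cells had less metallothionein than endothelial-like cells and, with all their clusters counted, a smaller ratio between libraries. Mt1 stood at 1739 CPM in dHep_IR (1181 cells) and 2075 CPM in FL_IR (480 cells), against 152 CPM in FL_control (251 cells), a ratio of 13.7 for FL_IR against FL_control (12.4 to 15.1). Mt2 stood at 178 CPM in dHep_IR and 115 CPM in FL_IR, against 8.07 CPM in FL_control, a ratio of 14.2 for FL_IR against FL_control (9.37 to 22.5). The irradiated libraries were again both high, and dHep_IR was 11.5-fold above FL_control for Mt1 (10.4 to 12.6) and 21.997-fold for Mt2 (14.6 to 34.8). As a mean over cells the Mt2 ratio was 4.39 for FL_IR and 6.62 for dHep_IR, and with hepatocyte RNA subtracted it was 6.72 for FL_IR. Counting Slc39a14, 3 of the 5 genes were at least 2-fold higher in FL_IR than in FL_control, where 7.88% of genes were higher and 17.1% lower, and the same 3 in dHep_IR against FL_control, where 7.21% were higher and 17.2% lower. After thinning, 70.7% of cells in dHep_IR and 78.5% in FL_IR held a Mt1 or Mt2 UMI, against 6.22% in FL_control. The clusters behind these values differ. Cluster 5, led by Vcan, Chil3 and Ccr2, held 902 cells of dHep_IR and 466 of FL_IR, with Mt1 at 1775 and 2092 CPM. Cluster 23, with Cx3cr1 and Ace among its leading genes, held 127 cells of FL_control, with Mt1 at 100.1 CPM. Cluster 4, led by MHC class II genes, is the one that held over 50 cells both of an irradiated library and of FL_control, and within it Mt1 stood at 1625 CPM in dHep_IR, against 185 CPM in FL_control. Mt2 within cluster 4 stood at 281 CPM in dHep_IR, against 10.9 CPM in FL_control. Without cluster 4, a choice made after seeing the data, FL_IR was 18.7-fold above FL_control for Mt1 and 21.8-fold for Mt2. The Mt1 ratio was then no longer below the endothelial-like one of 18.3. S100a8 and S100a9 together moved with these values, at 20914 CPM in monocyte-like cells of dHep_IR and 7864 CPM in FL_IR, against 220 CPM in FL_control, and their part was not tested.

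Kupffer-like cells had Mt1 and Mt2 above FL_control in both irradiated libraries, by an amount that depended on 1 cluster of FL_control. Mt1 stood at 1152 CPM in dHep_IR (366 cells) and 1210 CPM in FL_IR (452 cells), against 565 CPM in FL_control (649 cells). Mt2 stood at 268 CPM in dHep_IR and 172 CPM in FL_IR, against 56.0 CPM in FL_control. Within FL_control the level was uneven. Cluster 26, with 80 cells, had Mt1 at 2033 CPM and Mt2 at 266 CPM, and cluster 6, with 563 cells, had Mt1 at 209.9 CPM and Mt2 at 5.27 CPM. Cluster 26 was led by Prg4, Alox15, Ccl24 and Serpinb2, which are in no marker list used here, with 3 Kupffer markers (C1qc, C1qa and Timd4) among its 10 leading genes and Clec4f, Cd5l and Vsig4 not among them. With it, FL_IR was 2.14-fold above FL_control for Mt1 (2.05 to 2.24) and 3.08-fold for Mt2 (2.70 to 3.51), and dHep_IR 2.04-fold and 4.79-fold. Without it, a choice made after its values were seen, the ratios were 5.76 and 32.2 for FL_IR and 5.44 and 49.5 for dHep_IR. With hepatocyte RNA subtracted, the log2 ratio of Mt1 turned to -0.49 for FL_IR against FL_control and was 0.34 for dHep_IR, and no Mt2 above 0 was left in FL_IR. That subtraction used 25 transcripts, led here by Apoc1. They gave 39.2% of Mt1 in dHep_IR and 67.5% in FL_IR, where the 8 hepatocyte markers gave 3.41% and 10.9%. Mt1 and Mt2 were the members at least 2-fold higher in FL_IR, where 6.12% of genes were higher and 11% lower. In dHep_IR against FL_control Slc39a14 joined them, where 4.85% of genes were higher and 15.4% lower. Clusters 7 and 15 held the irradiated cells, with Mt1 at 1124 CPM in dHep_IR and 1203 CPM in FL_IR in cluster 7, and at 1262 and 1259 CPM in the shallower cluster 15.

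As whole classes, neutrophil- and T-like cells held less Mt1 than endothelial-, monocyte- and Kupffer-like cells in each library. In neutrophil-like cells Mt1 stood at 338 CPM in dHep_IR and 233 CPM in FL_IR, against 67.1 CPM in FL_control, and Mt2 at 51.0, 31.3 and 6.82 CPM in the same order. In T-like cells Mt1 stood at 261 CPM in dHep_IR and 164 CPM in FL_IR, against 14.9 CPM in FL_control, and Mt2 at 91.9, 45.1 and 6.19 CPM. The irradiated libraries were above FL_control for both genes in both classes, except that with hepatocyte RNA subtracted Mt1 of neutrophil-like cells turned below FL_control in dHep_IR (log2 ratio -0.73) and had no value above 0 in FL_IR, and its Mt2 none in either irradiated library. The 25 transcripts of that subtraction gave 89.3% of neutrophil-like Mt1 in dHep_IR and 138% in FL_IR. The 8 hepatocyte markers gave 3.83% and 20.9%. Mt1 and Mt2 were the 2 members at least 2-fold higher in FL_IR than in FL_control, where 6.47% of genes were higher and 37.6% lower among neutrophil-like cells, and 4.32% higher and 9.37% lower among T-like cells. The same held in dHep_IR against FL_control, where 7.15% of genes were higher and 41.9% lower, and 4.22% higher and 9.45% lower. The ratios of FL_IR to FL_control were 3.47 for Mt1 (2.90 to 4.20) and 4.60 for Mt2 (2.62 to 8.93) in neutrophil-like cells, where the median gene had a log2 ratio of -0.70, and 11.04 (8.03 to 15.3) and 7.29 (4.20 to 12.8) in T-like cells. For FL_IR against FL_control the neutrophil-like ratio of Mt1 ranged from 1.29 with the lowest class subtracted to 18.97 with doublets kept, that of Mt2 from 2.37 as a mean over cells to 40.7 with doublets kept, and the T-like one of Mt1 was 6.09 with hepatocyte RNA subtracted. Among the neutrophil-like clusters, cluster 8, led by Retnlg, S100a9 and Asprv1, had the most Mt1, at 999 CPM in dHep_IR and 422 CPM in FL_IR. Clusters 9 and 10, with the granule genes Ngp and Camp, had 273 and 216 CPM in dHep_IR and 152 and 103 CPM in FL_IR, and cluster 25 of FL_control had 62.7 CPM. After thinning, 27.2% of neutrophil-like cells of dHep_IR (25.2 to 29.3) and 22.2% of FL_IR (20.5 to 23.9) held a Mt1 or Mt2 UMI, and the FL_IR share lay within the interval of the T-like cells that serve as background (12.7 to 28.2). In NK or ILC1-like cells Mt1 stood at 200.1 CPM in dHep_IR (75 cells), against 28.9 CPM in FL_control (223 cells), and 2 of the 5 genes were at least 2-fold higher, where 4.07% of genes were higher and 16% lower. By the endothelial markers treated below, endothelial RNA would have brought 183% of this Mt1 in dHep_IR, so the level did not exceed that amount.

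Cholangiocyte-like cells, the lining of bile ducts, carried Mt1 in the unirradiated liver too. Mt1 stood at 7706 CPM in dHep_IR (86 cells) and 5513 CPM in FL_IR (45 cells), against 2797 CPM in FL_control (55 cells), and Mt2 at 1825, 1452 and 387 CPM. In FL_control this was the class with the highest Mt1, above the endothelial-like cells. For dHep_IR against FL_control the ratio was 2.75 for Mt1 (2.62 to 2.90) and 4.72 for Mt2 (4.14 to 5.40), and these were the 2 members at least 2-fold higher, where 5.61% of genes were higher and 15% lower. Hepatocyte-like cells were few. Mt1 stood at 19720 CPM in the 9 such cells of dHep_IR and 22748 CPM in the 42 of FL_IR, against 392 CPM in the 104 of FL_control. In FL_control, 18 of the 104 cells held a Mt1 or Mt2 UMI at all (17.3%, 10.6 to 25.97), at a median depth of 2604.5 UMIs, and the tenth of cells with the most held all the UMIs left after thinning.

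Free RNA from other cells can bring metallothionein UMIs into a class, so each class was set beside the endothelial-like cells, which held most Mt1 UMIs of each library, and beside hepatocyte- and cholangiocyte-like cells. RNA from a single source keeps its genes in 1 ratio. The endothelial-like cells held 2.38 Mt1 UMIs per Mt2 UMI in dHep_IR and 2.59 in FL_IR, against 4.16 in FL_control. The hepatocyte-like cells held 3.76, 3.80 and 3.94 in the same order, and the cholangiocyte-like cells 4.22, 3.80 and 7.23. Monocyte-like cells held 9.79 in dHep_IR (9.44 to 10.2) and 18.1 in FL_IR (16.7 to 19.6), against 18.8 in FL_control (12.4 to 29.9), above the ratio of these 3 classes in each library. Kupffer-like cells held 4.30 in dHep_IR (3.997 to 4.62) and 7.02 in FL_IR (6.41 to 7.70), against 10.1 in FL_control (9.11 to 11.2). These were above the same 3 classes in FL_IR and FL_control, while the dHep_IR interval held the cholangiocyte-like ratio and overlapped the interval of the 9 hepatocyte-like cells (3.02 to 4.72). The FL_control value joins cluster 6 and cluster 26, which were uneven in Mt1 and Mt2 as given above. No interval for this ratio was taken within either cluster. Neutrophil-like cells held 6.62 in dHep_IR (6.24 to 7.02) and 7.43 in FL_IR (6.90 to 8.02), against 9.83 in FL_control (5.42 to 19.6). They were above the same 3 classes in both irradiated libraries, while the FL_control interval held the cholangiocyte-like ratio. T-like cells held 2.85 in dHep_IR (2.34 to 3.47) and 3.64 in FL_IR (2.46 to 5.52), against 2.40 in FL_control (1.48 to 3.99). The T-like interval held the endothelial-like ratio in both irradiated libraries, and in FL_IR it held the hepatocyte-like ratio too, so these sources cannot be told apart there. Mt1 and Mt2 are close paralogues, and how reads that match both were counted is not stated in the labels.

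The 15 endothelial markers gave another measure of endothelial RNA in each class. Had all endothelial marker UMIs in a class come from endothelial-like cells with their Mt1, these would have brought 35.8% of the Mt1 of monocyte-like cells in dHep_IR and 12.1% in FL_IR, against 11.6% in FL_control. For Kupffer-like cells the shares were 56.0% in dHep_IR and 46.9% in FL_IR, against 3.88% in FL_control, and for neutrophil-like cells 23.3%, 25.01% and 52.6%. For T-like cells they were 58.5%, 93.1% and 53.4%. For NK or ILC1-like cells the share was 183% in dHep_IR, against 34.8% in FL_control. The Mt1 of monocyte-like cells was thus mostly beyond this amount in each library, and that of T-like cells in FL_IR nearly within it. For Mt2 the amounts were larger: 147% in dHep_IR and 85.0% in FL_IR, against 52.2%, in monocyte-like cells, and 101% and 127%, against 9.39%, in Kupffer-like cells. The Mt2 of both classes in dHep_IR, and of Kupffer-like cells in FL_IR, did not exceed this amount. In T-like cells the Mt2 shares were 70.0% in dHep_IR and 131% in FL_IR, against 30.8% in FL_control. Neutrophil-like cells had 64.8%, 71.7% and 124% in the same order. In NK or ILC1-like cells the Mt2 share was 247% in dHep_IR, against 77.3% in FL_control. In cholangiocyte-like cells the share was at most 1.76% for Mt1 and 3.12% for Mt2. The amount assumes RNA with the Mt1 per marker of the whole endothelial-like class, and it can miss in either direction. Fcgr2b and Eng of that list are known from leukocytes too, while the shallow cluster 11 of dHep_IR had more Mt1 than the class (24799 CPM, against 15998 CPM) and less of the marker Stab2 than cluster 3 (437 CPM, against 953 CPM).

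**Figure D4:**
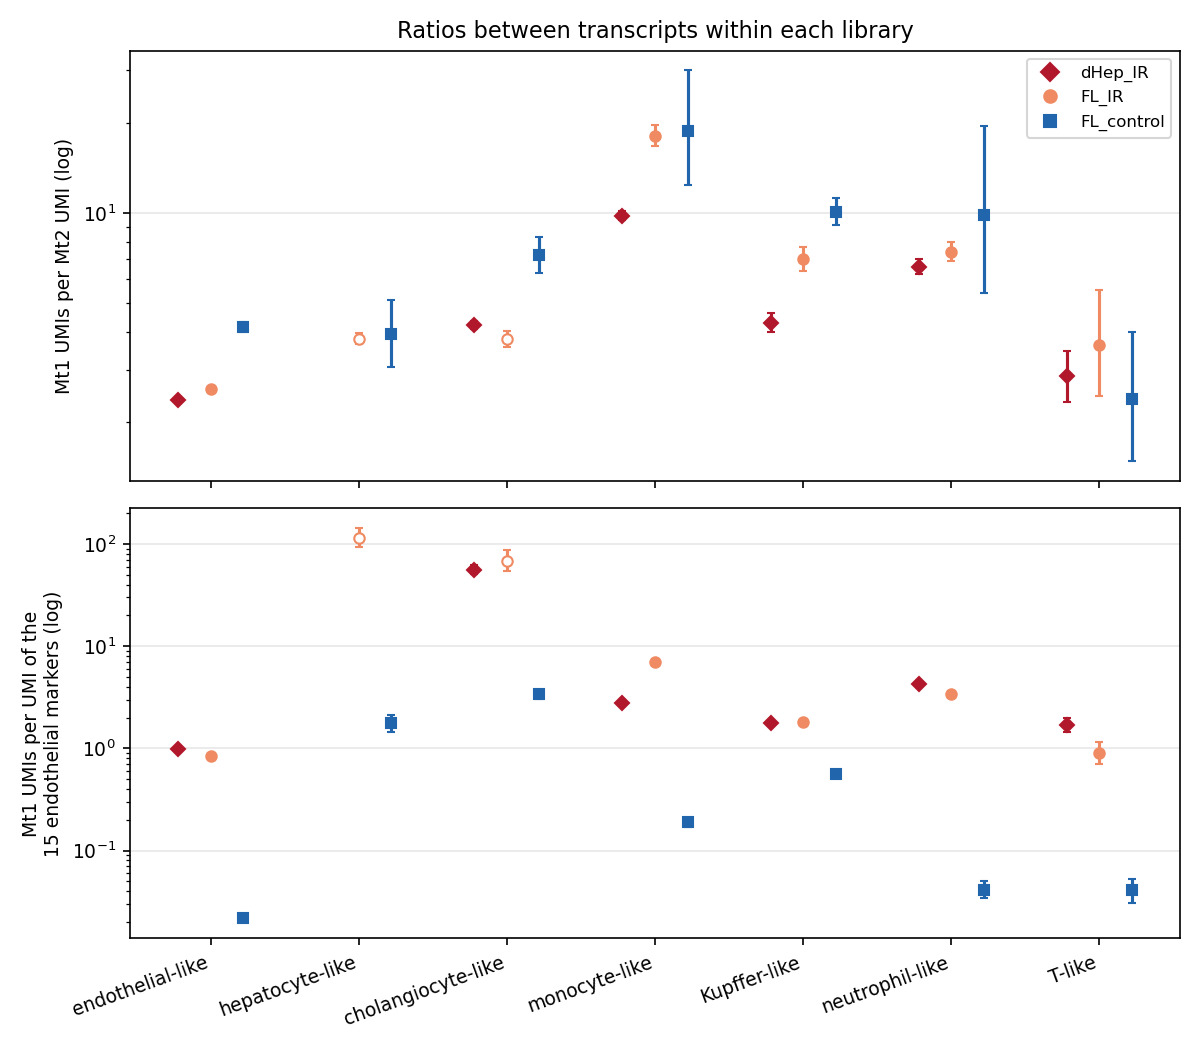
Mt1 UMIs per Mt2 UMI (upper panel) and Mt1 UMIs per UMI of the 15 endothelial markers (lower panel), both on log axes, by class and library with 95% exact bars; classes with at least 20 cells are drawn, and open symbols stand for fewer than 50. The ratio to Mt2 in monocyte- and Kupffer-like cells lies above that of endothelial-like cells of the same library, and T-like cells lie close to the endothelial value in the irradiated libraries.

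The same was asked of hepatocyte RNA. At the Mt1 per hepatocyte-marker UMI of hepatocyte-like cells, the 8 hepatocyte markers would have brought 0.194% of the Mt1 of endothelial-like cells in dHep_IR and 0.742% in FL_IR, against 0.224% in FL_control. For monocyte-like cells the amount was 0.607%, 2.05% and 0.688% in the same order, for Kupffer-like cells 3.41%, 10.9% and 0.224%, and for T-like cells 8.98%, 46.8% and 10.2%. The dHep_IR values rest on 9 hepatocyte-like cells. A longer list of 25 hepatocyte transcripts gave larger amounts, 39.2% in dHep_IR and 67.5% in FL_IR, against 2.33% in FL_control, for Kupffer-like cells, and 89.3%, 138% and 10.9% for neutrophil-like cells. For monocyte-like cells it gave 11.6%, 11.7% and 1.47%, and for endothelial-like cells 0.333%, 0.899% and 0.252%. Of that list Apoc1 was the most abundant transcript in Kupffer-like cells, and Hp in neutrophil- and monocyte-like cells. How much of these transcripts the cells made themselves was not tested. Endothelial-like cells were also sorted by their hepatocyte marker share into 4 groups of equal size. The group with the lowest share had Mt1 at 15302 CPM in dHep_IR and 11476 CPM in FL_IR, against 643 CPM in FL_control, and the group with the highest 16966, 12491 and 677 CPM. In dHep_IR the 2 lowest groups both held 0 hepatocyte marker UMIs, so the order between them is arbitrary.

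Slc30a1, the zinc exporter that MTF-1 is known to drive, was higher in irradiated endothelial-like cells by a much smaller factor. It stood at 68.7 CPM in dHep_IR (1391 UMIs) and 75.7 CPM in FL_IR (1367 UMIs), against 36.2 CPM in FL_control (785 UMIs). The ratio was 2.09 for FL_IR against FL_control (1.92 to 2.29) and 1.90 for dHep_IR against FL_control (1.74 to 2.07). The 4 deeper irradiated clusters ranged from 65.1 to 84.7 CPM and clusters 21 and 24 of FL_control stood at 37.7 and 35.0 CPM, so these did not overlap. The shallow cluster 11 was lower, at 36.4 CPM in dHep_IR (18.2 to 65.1) and 18.4 CPM in FL_IR (6.75 to 40.01), against 21.96 CPM in cluster 22 of FL_control (10.5 to 40.4). Within a library Slc30a1 varied little with the metallothionein of the cell: among 4 groups of equal size, the endothelial-like cells with the least Mt1 and Mt2 had 66.7 CPM in dHep_IR and 74.9 CPM in FL_IR, against 36.5 CPM in FL_control, and those with the most 60.0, 69.9 and 39.3 CPM.

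Outside endothelial-like cells Slc30a1 did not share one direction. In monocyte-like cells it stood at 18.1 CPM in dHep_IR and 20.8 CPM in FL_IR, against 12.3 CPM in FL_control, a ratio of 1.69 for FL_IR against FL_control (1.15 to 2.54), or 2.02 without cluster 4. In Kupffer-like cells it stood at 27.8 CPM in dHep_IR and 29.9 CPM in FL_IR, against 40.3 CPM in FL_control, a ratio of 0.743 (0.582 to 0.941), and the lower value held under TMM scaling. Within FL_control its Kupffer-like cells were uneven, with 48.0 CPM in cluster 6 and 7.74 CPM in cluster 26, the cluster with the most Mt1. Without cluster 26 the Kupffer ratio was 0.624 for FL_IR and 0.582 for dHep_IR. Among classes of at least 50 cells, Slc30a1 was highest in endothelial-like cells of both irradiated libraries, while in FL_control the Kupffer-like level (35.8 to 45.1) and the endothelial-like level (33.7 to 38.8) overlapped. Neutrophil-like cells had the least in the irradiated libraries, 3.46 CPM in dHep_IR and 3.86 CPM in FL_IR. In FL_control B-like cells, at 4.89 CPM (3.30 to 6.99), and neutrophil-like cells, at 5.12 CPM (2.34 to 9.71), were not told apart.

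Slc39a14, the acute-phase importer ZIP14, separated the libraries in monocyte-like rather than endothelial-like cells. In monocyte-like cells it stood at 31.9 CPM in dHep_IR (569 UMIs) and 47.7 CPM in FL_IR (271 UMIs), against 4.56 CPM in FL_control (13 UMIs). FL_IR was 10.5-fold above FL_control (6.01 to 19.9), with 100 of 9913 measured genes at a higher ratio, and dHep_IR 6.99-fold (4.06 to 13.2). Without thinning, 31.2% of monocyte-like cells in dHep_IR and 33.8% in FL_IR held a Slc39a14 UMI, against 3.98% in FL_control, and in endothelial-like cells 3.73%, 3.99% and 4.01% did, so the monocyte-like share was above that of the abundant class in the irradiated libraries. Thinned to 1000 UMIs the monocyte-like shares were 2.80% (1.94 to 3.91), 3.97% (2.40 to 6.13) and 1.24% (0.257 to 3.59), near the level of a single UMI, and the irradiated intervals overlapped that of FL_control. The clusters gave the same order. Cluster 5 stood at 34.5 CPM in dHep_IR and 49.0 CPM in FL_IR, against 4.92 CPM in cluster 23 of FL_control, and within cluster 4 the level was 23.3 CPM in dHep_IR (96 UMIs), against 2.56 CPM in FL_control (4 UMIs). Without cluster 4 the ratio to FL_control was 6.63 for FL_IR and 4.66 for dHep_IR.

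In other classes Slc39a14 was low or rested on few cells. Endothelial-like cells had 6.47 CPM in dHep_IR and 7.31 CPM in FL_IR, against 4.98 CPM in FL_control, a ratio of 1.47 for FL_IR against FL_control (1.13 to 1.91). Kupffer-like cells had 11.1 CPM in dHep_IR (38 UMIs) and 7.39 CPM in FL_IR (23 UMIs), against 4.65 CPM in FL_control (34 UMIs), a ratio of 2.39 for dHep_IR against FL_control (1.46 to 3.91) that turned to a log2 ratio of -0.84 with hepatocyte RNA subtracted. Hepatocyte-like cells had the most in the irradiated libraries, 408 CPM in dHep_IR from 8 UMIs (176 to 803) and 361 CPM in FL_IR from 162 UMIs (307 to 421), against 44.0 CPM in FL_control from 34 UMIs (30.5 to 61.5). Cholangiocyte-like cells stood at 46.5 CPM in dHep_IR and 49.7 CPM in FL_IR, against 58.8 CPM in FL_control, and these intervals overlapped. In FL_control the cholangiocyte-like (41.2 to 81.4), hepatocyte-like and plasmacytoid dendritic-like levels (33.2 CPM, 24.6 to 43.7) were the 3 highest and neighbours overlapped, and every other class of at least 50 cells was below 10 CPM.

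Mtf1, which encodes the zinc sensor MTF-1, was under 2-fold apart between libraries in each class compared, except under TMM scaling, without shared barcodes and with the lowest class subtracted. In endothelial-like cells it stood at 50.3 CPM in dHep_IR (1019 UMIs) and 48.0 CPM in FL_IR (867 UMIs), against 33.9 CPM in FL_control (735 UMIs), a ratio of 1.42 for FL_IR against FL_control (1.28 to 1.57) and 1.49 for dHep_IR against FL_control (1.35 to 1.64). In monocyte-like cells it stood at 25.01 CPM in dHep_IR and 21.7 CPM in FL_IR, against 15.8 CPM in FL_control, a ratio of 1.37 for FL_IR (0.967 to 1.98) and 1.58 for dHep_IR (1.16 to 2.20). In Kupffer-like cells it stood at 25.8 CPM in dHep_IR and 20.3 CPM in FL_IR, against 21.6 CPM in FL_control, a ratio of 0.936 (0.688 to 1.26). In T-like cells it stood at 23.3 CPM in dHep_IR and 19.1 CPM in FL_IR, against 11.9 CPM in FL_control, a ratio of 1.96 for dHep_IR against FL_control (1.24 to 3.08). With TMM scaling the neutrophil-like log2 ratio of FL_IR to FL_control (1.30) and the T-like one of dHep_IR to FL_control (1.02) passed 2-fold, the T-like one also without shared barcodes (1.03). With the lowest class subtracted the log2 ratio was -3.13 in Kupffer-like cells for FL_IR against FL_control, and for dHep_IR against FL_IR it was 2.75 in Kupffer-like, 1.41 in monocyte-like and -1.15 in neutrophil-like cells. Endothelial-like cells had the highest level among classes of at least 50 cells in each library, although in FL_control the interval of cholangiocyte-like cells (17.4 to 46.5) held it. The next classes in dHep_IR, from Kupffer-like at 25.8 CPM to T-like at 23.3 CPM, overlapped in their intervals, and in FL_IR neutrophil-like cells came second, at 31.7 CPM.

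In Mt1 and Mt2, dHep_IR and FL_IR differed by less than either did from FL_control in each of the 5 classes compared in all libraries, as counted. Among the other settings that gave a value, the exceptions were Mt1 of Kupffer-like cells with hepatocyte RNA subtracted (1.78 for dHep_IR against FL_IR, beside 1.27 for dHep_IR against FL_control) and Mt1 of neutrophil-like cells with the lowest class subtracted (1.996, beside 1.29 for FL_IR against FL_control). Gsdmd in endothelial-like cells stood at 24.6 CPM in dHep_IR and 8.86 CPM in FL_IR, against 26.1 CPM in FL_control. The low library was thus FL_IR, which carries the same genotype label as FL_control. A deletion limited to hepatocytes need not lower Gsdmd in endothelial-like cells, so the dHep_IR value does not settle its label. Every direction between the libraries labelled dHep_IR and FL_IR therefore rests on labels that Gsdmd does not bear out. In endothelial-like cells the ratio of dHep_IR to FL_IR was 1.35 for Mt1 (1.34 to 1.36), 1.47 for Mt2 (1.46 to 1.48), 0.907 for Slc30a1 (0.841 to 0.978), 0.885 for Slc39a14 (0.689 to 1.14) and 1.05 for Mtf1 (0.956 to 1.15). None of the 5 was at least 2-fold apart there, where 1.59% of genes were higher and 2.44% lower by that much, and 745 of 12252 measured genes had a higher ratio than Mt1. Mt2 was higher in dHep_IR in each class compared, with ratios of 1.56 in Kupffer-like (1.40 to 1.73), 1.55 in monocyte-like (1.43 to 1.69), 1.63 in neutrophil-like (1.49 to 1.78) and 2.04 in T-like cells (1.39 to 3.07). Mt1 did not share 1 direction: it was 1.45 in neutrophil-like (1.40 to 1.499) and 1.59 in T-like cells (1.30 to 1.97), but 0.838 in monocyte-like cells (0.821 to 0.856), and 0.952 in Kupffer-like cells (0.910 to 0.996), where the direction flipped under TMM scaling, with doublets kept and with hepatocyte RNA subtracted. Mtf1 was 0.755 in neutrophil-like cells (0.678 to 0.840). Slc39a14 in monocyte-like cells was 0.668 (0.577 to 0.775). Mt2 of T-like cells was the single member ratio of at least 2-fold in these 5 classes, and it was 1.13 with doublets kept, 1.68 as a mean over cells and 1.93 with the stricter cell filter. There 4.65% of genes were higher and 3.38% lower by that much. By the endothelial markers, endothelial RNA would have brought 70.0% of T-like Mt2 in dHep_IR and 131% in FL_IR. For Kupffer-like Mt2 the amounts were 101% and 127%, for monocyte-like 147% and 85.0%, and for neutrophil-like 64.8% and 71.7%. The part of endothelial RNA in the Mt2 ratios of these classes was not tested. The share of genes at least 2-fold higher and lower was 3.14% and 6.67% in Kupffer-like, 8.18% and 3.52% in monocyte-like and 4.25% and 3.33% in neutrophil-like cells. FL_IR is in both comparisons, so values of dHep_IR against FL_IR and of FL_IR against FL_control are not independent.

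Beyond the 5 genes, 1 zinc transporter of endothelial-like cells was past 2-fold between FL_IR and FL_control, Slc39a8. Slc39a8 encodes ZIP8, an importer of zinc and manganese. It stood at 55.8 CPM in dHep_IR and 39.1 CPM in FL_IR, against 315 CPM in FL_control, a ratio of 0.124 for FL_IR against FL_control (0.115 to 0.134). It was the 1 of 11 measured importers of the SLC39 family past 2-fold, with 0 higher, and the median log2 ratio of the 11 was -0.34, against -0.10 over all genes, of which 9.75% were higher and 16.5% lower. Of 6 measured exporters of the SLC30 family, Slc30a1 alone was at least 2-fold higher and 0 were lower, with a median log2 ratio of 0.09. Slc30a4, which encodes ZnT4 of intracellular vesicles, came next, at 39.1 CPM in dHep_IR and 37.1 CPM in FL_IR, against 19.8 CPM in FL_control, a ratio of 1.87 (1.65 to 2.12). Between dHep_IR and FL_IR no exporter or importer reached 2-fold in these cells. In monocyte-like cells 2 of 10 measured importers were at least 2-fold higher in FL_IR than in FL_control, Slc39a14 and Slc39a8 (2.04, 1.17 to 3.77), and 1 was lower, Slc39a10 (0.335, 0.203 to 0.543). Slc39a8 and Slc39a10 rest on under 100 UMIs here and are named after their values were seen. There Slc39a8 stood at 1.23 CPM in dHep_IR and 11.5 CPM in FL_IR, against 5.62 CPM in FL_control, so the irradiated libraries were on either side of the unirradiated one. The other metallothionein genes, Mt3 and Mt4, had under 20 UMIs and were not measured.

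**Figure D5:**
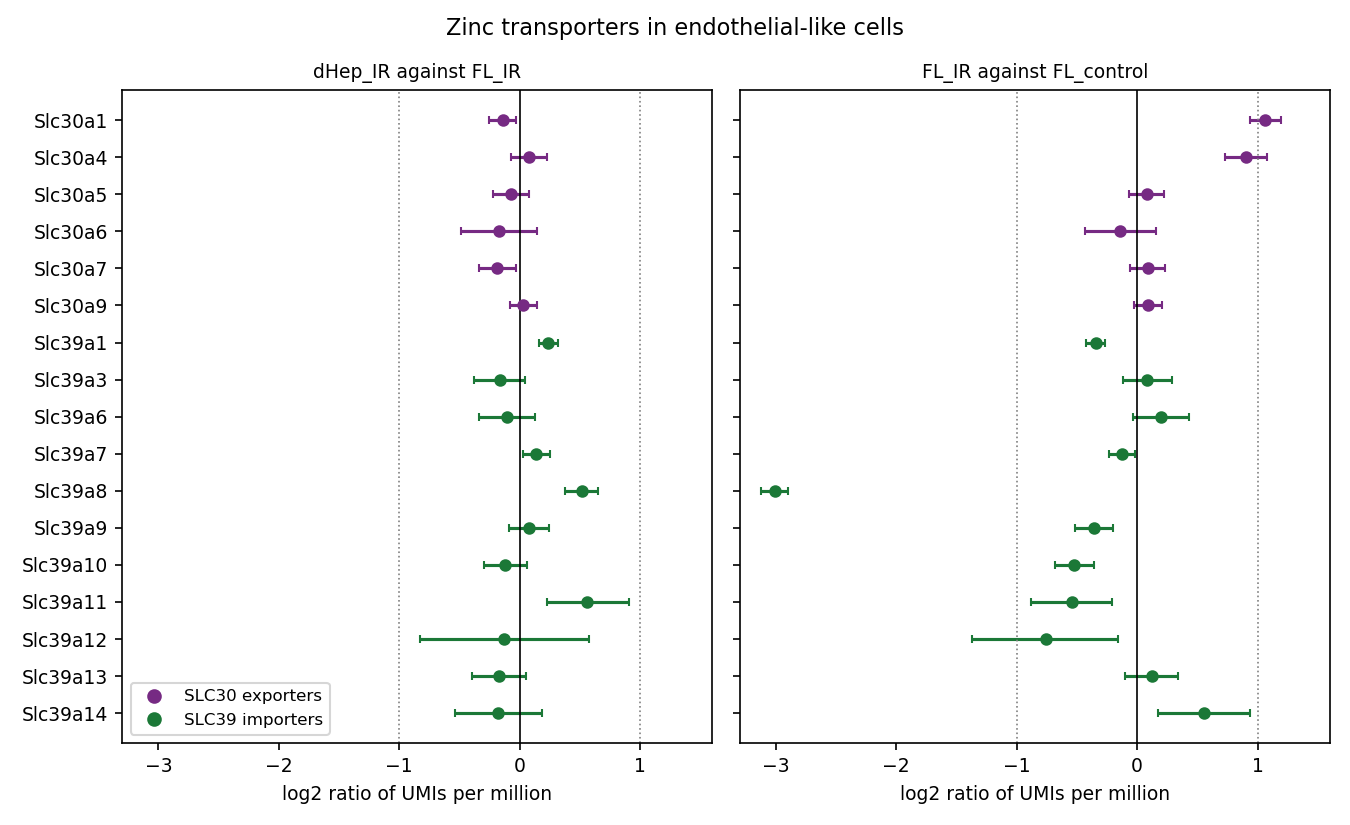
Log2 ratio of CPM in endothelial-like cells for SLC30 exporters and SLC39 importers, for dHep_IR against FL_IR (left) and FL_IR against FL_control (right), with exact 95% bars; dotted lines mark 2-fold. Slc39a8 lies 3 log2 units below the unirradiated level and Slc30a1 just above the 2-fold line in the right panel, and no gene passes 2-fold in the left one.

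Of 8 measured genes of copper handling in endothelial-like cells, 1 was at least 2-fold higher in FL_IR than in FL_control, Cp, which encodes the copper oxidase ceruloplasmin, at 11.6 CPM in dHep_IR and 11.8 CPM in FL_IR, against 1.75 CPM in FL_control. That is 1 of 8, beside 9.75% of all genes, and the median log2 ratio of the 8 was -0.32, beside -0.10. Slc31a2, which encodes a copper transporter of intracellular vesicles, had a ratio of 0.504 (0.470 to 0.541), and Commd1, a gene of copper export, one of 0.528.

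Genes known to answer the other inducers of metallothioneins were counted in the same endothelial-like cells. Of 8 glucocorticoid targets, 5 were at least 2-fold higher in FL_IR than in FL_control and 0 lower, with a median log2 ratio of 1.77, where 9.75% of all genes were higher and the median gene stood at -0.10. These lists were chosen with earlier results known. Fkbp5, which encodes a chaperone of the glucocorticoid receptor, stood at 469 CPM in dHep_IR and 435 CPM in FL_IR, against 42.7 CPM in FL_control. Zbtb16, a transcription factor gene, stood at 113 CPM in dHep_IR and 117 CPM in FL_IR, against 0.184 CPM in FL_control, from 4 UMIs. The other 3 were Per1, Ddit4 and Klf9, with ratios of 6.75, 5.78 and 2.01. Klf9, and Tsc22d3 with a ratio of 1.004 (0.947 to 1.07), are named after their values were seen. Of 9 targets of NRF2, the oxidative stress factor, 3 were at least 2-fold higher, Txnrd1 (3.76), Nqo1 (3.53) and Srxn1 (2.54), with a median of 0.92, and of 8 genes of the interleukin-6 and STAT3 response 3 were, Bcl3 (4.31), Il4ra (3.94) and Pim1 (2.75), with a median of 0.75. In monocyte-like cells 5 of 8 measured NRF2 targets were at least 2-fold higher, with a median of 1.84, and 2 of 8 glucocorticoid targets, with 1 lower, where 7.88% of all genes were higher and 17.1% lower. Between dHep_IR and FL_IR no gene of these lists reached 2-fold in endothelial-like cells except Nqo1, which was lower, at 13.1 CPM in dHep_IR, against 29.9 CPM in FL_IR. The part of any inducer in the metallothionein levels was not tested.

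Likeness of pattern was measured as Pearson's r of log2 CPM plus 1 over the 22 pairs of library and class with at least 50 cells, for 12302 genes. The pairs share their 3 libraries, so r is a description. The gene most like Mt1 was Mt2 (0.96), then Lbp (0.88), which encodes the lipopolysaccharide-binding protein, Gab1 (0.86), Pon2 (0.86) and Dctn2 (0.85). For Mt2, after Mt1, they were Phlda3 (0.88), Cfap69 (0.87), Lbp (0.86) and Nectin2 (0.86). Slc30a1 had an r of 0.75 with Mt1, Mtf1 one of 0.66 and Slc39a14 one of 0.31, which put Slc30a1 at rank 68 for Mt1, Mtf1 at 317 and Slc39a14 at 3743. The genes most like Slc30a1 were Lrp5 (0.93), Tmem87b, Nus1 and Slc17a5 (0.92 each) and Emc7 (0.91), those most like Slc39a14 were Ufc1 (0.91), Cox4i1 (0.90), Atp5c1 (0.88), Ndufb10 (0.86) and Fars2 (0.86), and those most like Mtf1 were Mark4 (0.90), Inhbb (0.85), Ccnjl (0.85), Pnp2 (0.84) and Dnah2os (0.84).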

How the data were processed

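Liver cells were captured in droplets with 10x Genomics 3' chemistry and sequenced as 3 libraries, 1 per group, per the labels' protocols. The deposited matrices hold raw UMI counts per gene and barcode. CASAVA 1.8, Cell Ranger 6.1.1, Seurat 4.0.3 and mm10 are named without their roles, per the submitters' processing notes. The annotation version and any removal of free RNA by the authors are not given in the sources used here.

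Cells with at least 500 UMIs, 250 genes and at most 25% mitochondrial UMIs were kept. Scrublet, as built into scanpy 1.11.5 with an expected rate of 6%, marked 291 cells in dHep_IR (3.85%), 235 in FL_IR (3.47%) and 160 in FL_control (2.42%) as doublets, and these were removed. Log-normalized counts of 2000 variable genes, 30 components and 15 neighbours gave 27 Leiden clusters (igraph 0.11.9, resolution 1), with no integration of libraries. A cluster was named from fixed markers where at least 3 were detected, no other class had as many markers among its 10 leading genes and the next class scored under 75% of it; shallow clusters also needed 1 marker among those 10. Endothelial-like clusters 1, 2 and 3 have none there. Raw counts of a class were added up within a library, and ratios are given for classes of at least 50 cells in both libraries. Intervals are exact (Poisson, Clopper-Pearson, conditional; scipy 1.17.1). A gene was measured with at least 20 UMIs over both libraries, named with 100 among the further lists, and called at 2-fold. The calculation was tested on simulated counts. Log2 ratios have a prior count of 0.5. All 5 members are named, with the zinc transporters and up to 4 genes of each further list by size of ratio. The members and lists were chosen with earlier results of these data known. TMM factors are from edgeR 4.0.16. Promoters are RefSeq's, and gene positions come from the GENCODE annotation of GRCm38.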

Additional observations from a re-analysis of the deposited data

Results flagged for a closer look

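Slc30a1 lay on opposite sides of FL_control in different classes. The ratio of FL_IR to FL_control was 2.09 in endothelial-like and 1.69 in monocyte-like cells, and 0.743 in Kupffer-like cells. The ratio of dHep_IR to FL_control was 1.90 in endothelial-like and 1.47 in monocyte-like cells, and 0.691 in Kupffer-like cells. These comparisons share FL_control, and with 1 library per group the difference between classes was not tested.

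Mt1 lay on opposite sides of FL_IR in different classes of dHep_IR. The ratio stood at 1.59 among T-like, 1.45 among neutrophil-like and 1.35 among endothelial-like cells, but at 0.952 among Kupffer-like and 0.838 among monocyte-like cells. The difference between classes was not tested, the Kupffer-like value changed sign under TMM scaling, with doublets kept and with hepatocyte RNA subtracted, and Gsdmd does not bear out the labels of these 2 libraries.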

How the results depend on the processing

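The 5 genes were recomputed under 9 other settings and 4 chosen after seeing the data. Of 769 values, 661 moved by less than their counting error, 102 moved by more, and 6 whose counting interval excluded 1 changed sign. For Mt1 in endothelial-like cells the log2 ratio was 4.19 for FL_IR against FL_control (4.28 with TMM), 0.43 for dHep_IR against FL_IR (0.51 with TMM, 0.45 as a mean over cells, 0.44 without Mt1 and Mt2 in the total, 0.44 with hepatocyte RNA subtracted) and 4.63 for dHep_IR against FL_control (4.79, 4.67 and 4.66 under the first 3). TMM moved every neutrophil-like ratio to FL_control by 0.77 for FL_IR and 0.86 for dHep_IR, and otherwise by at most 0.18. With it Slc30a1 and Slc39a14 of neutrophil-like cells turned from below to above FL_control. Shares thinned to 1000 UMIs were 99.6%, 98.6% and 47.1%. By Spearman's rho 3 of the 5 genes most like Mt1 were shared. Of 75 ratios, 25 reached 2-fold, and 21 to 28 under the alternatives. The cause of these movements was not tested.

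The reversed values were Mt1 in Kupffer-like cells for dHep_IR against FL_IR (-0.07 became 0.088 with TMM, 0.32 with doublets kept and 0.83 with hepatocyte RNA subtracted), Mt1 in Kupffer-like cells for FL_IR against FL_control (-0.49), Slc39a14 in Kupffer-like cells (-0.84) and Mt1 in neutrophil-like cells (-0.73) for dHep_IR against FL_control, the last 3 with hepatocyte RNA subtracted. That subtraction used 25 transcripts led by Apoc1 in Kupffer-like cells and by Hp in monocyte-like cells, and it left 63 of 75 values above 0. How much of these transcripts the cells made themselves was not tested. Subtracting the lowest class left 61.

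No paired analysis was possible because each group is 1 library. Depth limits the hepatocyte-like values of dHep_IR (9 cells), and in FL_control Slc39a14 of monocyte-like (13 UMIs) and neutrophil-like cells (3 UMIs) and Mt2 of monocyte-like cells (23 UMIs).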

Other observations

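Stellate-like cells, too few to compare, held Mt1 at 38781 CPM in 4 cells of dHep_IR and 11107 CPM in 8 cells of FL_IR, against 614 CPM in 21 cells of FL_control. B-like cells held Mt1 at 727 CPM in 11 cells of dHep_IR (58 UMIs) and 878 CPM in 20 cells of FL_IR (123 UMIs), against 13.5 CPM in 1417 cells of FL_control (83 UMIs). Plasmacytoid dendritic-like cells of FL_control held 16.6 CPM.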
